A study of Mus musculus with 12 samples.

Results

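The circadian clock genes are described here by 10 members, Per1, Per2, Per3, Cry1, Arntl (also named Bmal1), Clock, Nr1d1, Nr1d2, Dbp and Tef, chosen by gene symbol from the 52632 genes of the series. All 10 had a mean of at least 1 FPKM (fragments scaled for the length of the transcript and for all fragments counted in the library) and were tested with the other genes above that level, 19288 in all. The series has 12 libraries in 4 groups of 3, made from CD4 T cells of mouse kidney that were isolated with a flow sorter. WT control and WT IRI came from bought C57BL6/J mice, and KO control and KO IRI from CD4 Keap1 KO mice bred in house on C57BL6/J, so a difference between genotypes cannot be told apart from one between sources of mice. In the IRI groups (ischemia-reperfusion injury), blood flow to both kidneys was stopped for 30 min and cells were collected 24 h later. The labels used here give no promoter or Cre line for the Keap1 deletion, no age, no sham surgery for the controls, no time of day of collection and no light cycle, and do not say whether libraries of a group came from separate animals. P-values therefore measure the spread between these libraries, which may in part be technical.

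The molecular clock is a feedback loop that runs in most cells. A dimer of CLOCK and BMAL1 switches on Per and Cry genes through E-boxes, and PER and CRY proteins return to the nucleus and inhibit that dimer. The same dimer drives Nr1d1 and Nr1d2, whose products REV-ERB alpha and beta repress Arntl, and the PAR bZIP factors Dbp and Tef, which act through D-boxes against the repressor NFIL3. In T cells the clock is known for daily changes in trafficking and cytokine output, and Per1 is also an immediate target of glucocorticoid and cAMP signals in many tissues.

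The promoter stretches below are shown because they hold the elements through which these loops act. They come from the RefSeq windows of GRCm38.p6 that run from 250 bases before to 50 bases after a start site, and 9 of the 10 members had a window (all but Per2). Each is given 5′ to 3′ on the strand of its gene, with the element in capitals. The E-box searched was CACGTG, the D-box was TTACGTAA or TTATGTAA, and the REV-ERB/ROR element was TAGGTCA or TGGGTCA, on both strands. The matches shown do not overlap each other.
Per1 E-box, 166 bases before the start, chr11:69098758-69098813, plus strand: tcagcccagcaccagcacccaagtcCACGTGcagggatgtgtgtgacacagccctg
Cry1 E-box, 60 bases before the start, chr10:85185084-85185139, minus strand: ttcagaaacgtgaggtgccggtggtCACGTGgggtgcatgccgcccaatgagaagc
Tef E-box, 127 bases before the start, chr15:81802535-81802564, plus strand: tgctgtggctcCACGTGctgcagctggcac
Per3 D-boxes, 205 and 158 bases before the start, chr4:151044791-151044895, minus strand: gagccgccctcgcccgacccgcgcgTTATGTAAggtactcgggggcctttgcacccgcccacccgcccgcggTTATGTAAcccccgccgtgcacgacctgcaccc
Arntl REV-ERB/ROR element, 30 bases after the start, chr7:113207530-113207559, plus strand: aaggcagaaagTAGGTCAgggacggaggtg
Nfil3 REV-ERB/ROR element on the opposite strand, 12 bases before the start, chr13:52981033-52981062, minus strand: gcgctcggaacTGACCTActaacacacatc
In the GENCODE annotation of GRCm38, the Per1 stretch lies within the gene but in no exon, the Cry1 and Per3 stretches lie upstream of their genes, the Tef stretch overlaps an exon of a Tef transcript with an earlier start and an exon of the antisense gene Gm17597, and the Arntl stretch lies in an exon of its gene. The Nfil3 stretch spans the RefSeq start site and lies within the GENCODE gene, overlapping an exon. The E-box was found in 3 of the 9 member windows, against 8.09% of 27025 genes with a window. In the lists used further below, it was in 2 of 17 other clock genes and 3 of 6 glucocorticoid-responsive genes with a window. The D-box was found in 1 of 9 (1.23% of genes), and the REV-ERB/ROR element in 1 of 9 (7.35% of genes). The cAMP response element TGACGTCA, held by 2.03% of genes, and the palindromic glucocorticoid response element, held by 0.0111%, were in none of the 9. A match is a run of letters in a short window, and the data hold no measurement of factor binding.

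Because the values are FPKM, the number of reads behind each is unknown. Summed FPKM ran from 739969 to 2089551 per library. The 3 highest genes of a library held 17.7% of that sum in KO control 1, 21.6% in WT IRI 3 and 24.8% in WT control 3. In the other libraries they held 32.5% to 63.1%, which limits a comparison of FPKM between libraries. The factor from a rescaling by median ratios ran from 0.755 in WT IRI 3 to 1.34 in KO control 1. Values after this rescaling are given beside those as deposited where they bear on a result. Keap1 itself averaged lower in KO but its groups did not differ past the threshold as deposited (log2 difference -0.34 ± 0.13, SE, adjusted p = 0.0945) and did after rescaling (-0.61 ± 0.11, adjusted p = 0.0484), while its downstream gene Nqo1 was at most 0.543 FPKM in the 6 WT libraries and at least 3.38 in the 6 KO libraries. All 10 T cell markers were found, and their summed level was 1481 to 1622 FPKM in the WT controls and 669 to 773 in WT after IRI, and for KO 1853 to 2802 in controls and 1284 to 1722 after IRI. After IRI, averaged over genotype, 8 of the 10 T cell markers fell, as did 6.03% of tested genes. In bulk RNA, fewer cells of a type and less RNA per cell cannot be told apart.

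Levels of the members spanned a wide range in each library. Per1 was the most abundant, at a median rank of 815 among 12054 tested protein-coding genes, and Per2 the lowest, at a median rank of 11346. In WT control, Per1 averaged 38.9 ± 5.67 FPKM (SD, n = 3). It was followed by Nr1d2 (14.9 ± 1.53 FPKM), Arntl (14.3 ± 2.80), Cry1 (11.7 ± 1.15), Clock (8.31 ± 2.53) and Tef (8.09 ± 2.67). Nr1d1 (3.24 ± 0.532 FPKM), Dbp (2.94 ± 0.165), Per2 (2.53 ± 1.46) and Per3 (1.82 ± 0.809) were lowest. Neighbours in this order did not differ beyond their spread, except that Per1 stood above Nr1d2, Cry1 stood above Clock by a narrow margin in these 3 libraries (lowest Cry1 10.69, highest Clock 10.66), and Tef stood above Nr1d1.

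**Figure D1:**
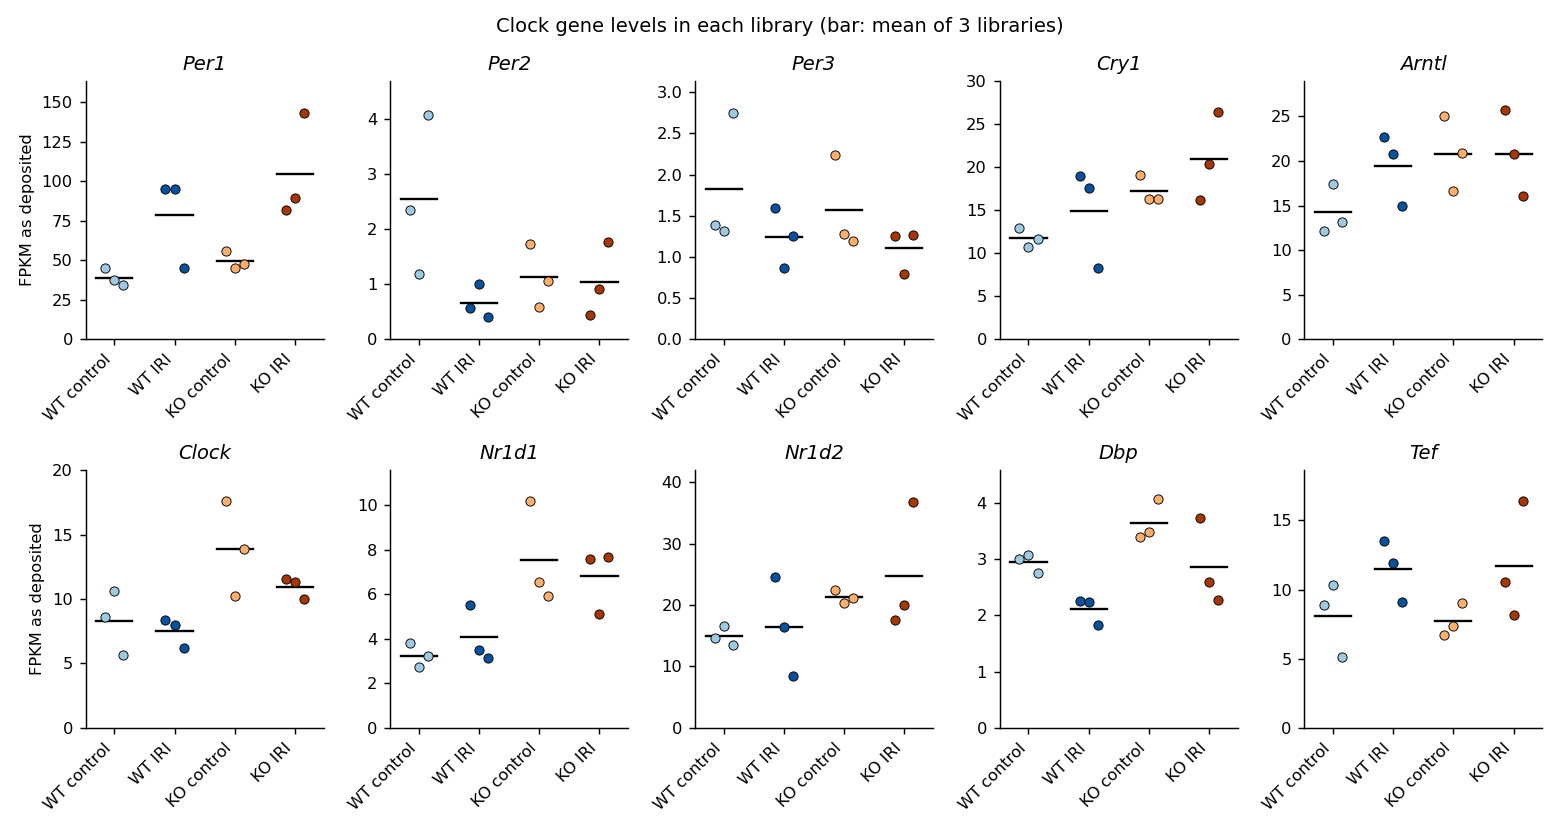
Level of each of the 10 clock genes in FPKM as deposited (linear axis from 0, 1 panel per gene) in WT control, WT IRI, KO control and KO IRI; each point is 1 library and the bar is the mean of 3. Per1 is higher in the IRI groups of both genotypes, with WT IRI 3 the lowest IRI library at 44.8 FPKM, while the other panels show groups that mostly overlap between control and IRI.

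The first question was how injury changed the clock genes. Of the 10 members, Per1, a PER protein gene that also responds quickly to hormonal and cAMP signals, rose after IRI when both genotypes were averaged, and the other 9 did not pass. Per1 was 45.1, 37.6 and 34.0 FPKM in the WT controls and 95.2, 95.4 and 44.8 in WT after IRI. It was 55.7, 44.8 and 47.4 FPKM in the KO controls and 81.6, 89.3 and 143 in KO after IRI. The KO groups did not overlap. In WT, WT IRI 3 was just below the highest control, WT control 1. The ratio of mean FPKM was 2.02 in WT and 2.12 in KO.

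On the log2(FPKM + 1) scale, on which every difference here is given, the averaged difference of Per1 was 0.98 ± 0.22 (SE; limma, Benjamini-Hochberg adjusted p = 0.0197; 12 libraries), against a background of 3.01% of tested genes called higher and 9.04% called in either direction. Within WT the difference was 0.92 ± 0.31 (adjusted p = 0.136) and within KO 1.03 ± 0.31 (adjusted p = 0.157), so neither passed alone. After rescaling, all 6 IRI libraries (59.3 to 131 FPKM) lay above all 6 controls (36.9 to 49.4 FPKM). The share of tested genes with such a separation over both genotypes was not counted. The averaged difference was then 1.06 ± 0.18 (adjusted p = 0.00377), with 6.35% of tested genes called higher and 13.7% in either direction. That within WT passed as well (0.98 ± 0.25, adjusted p = 0.0412; background 7.94% in either direction).

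As deposited, the call for Per1 held with any 1 of 8 libraries left out. It was lost without WT control 2 (0.97, adjusted p = 0.0510), WT IRI 1 (0.89, 0.0512), WT IRI 2 (0.89, 0.0541) or KO control 3 (0.97, 0.0512), whereas after rescaling it held with each of the 12 libraries left out in turn (0.93 to 1.18, adjusted p 0.00194 to 0.0131). The library with the highest Per1, KO IRI 3, also had the highest summed level of loop and distal tubule markers, 274 FPKM against 1.96 to 78.0 in the other 11. Without it the Per1 difference was 0.85 (adjusted p = 0.0461). Neutrophil markers summed to 3.51 to 7.33 FPKM for WT controls against 17.0 to 37.6 after IRI, and to 1.87 to 4.37 for KO controls against 3.21 to 32.3 after IRI. B cell markers, of which 4 of 6 fell averaged over genotype, summed to 88.1 to 148 FPKM for WT controls against 26.3 to 42.7 after IRI, and to 126 to 279 for KO controls against 46.5 to 73.1 after IRI. Of the CD8 T and NK cell markers, 5 of 8 fell. For macrophages and monocytes 3 of 8 markers fell and 1 rose, and for dendritic cells 1 of 6 fell. The share of all tested genes called lower was 6.03%. The part of these cells, and of the lower T cell marker sum, in the Per1 result was not tested.

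No other member of the repressor arm passed. Per2, a partner of PER1 in the inhibitory complex, was 2.35, 1.18 and 4.07 FPKM in the WT controls and 0.569, 1.003 and 0.409 in WT after IRI. These groups did not overlap, as was so for 14.4% of tested genes in this direction, and the difference of -1.02 ± 0.38 did not pass (adjusted p = 0.187). In KO, Per2 was 1.73, 0.577 and 1.06 FPKM in controls and 0.445, 0.905 and 1.76 after IRI, a difference of -0.07 ± 0.38 with overlapping groups (adjusted p = 0.967). In WT, Per1 and Per2 thus had fitted differences of opposite sign, under the main and all 34 alternative settings. These settings reuse the same libraries, and the Per2 difference did not pass. The level of Per2 lies near the filter of 1 FPKM, where the counting error is unknown. Per2 averaged 2.53 FPKM in WT control, 0.660 in WT IRI, 1.12 in KO control and 1.04 in KO IRI. Its mean over all libraries thus reached the filter mainly through WT control, the group from which the WT difference is taken.

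Per3, whose product is a less essential PER protein, stayed between 0.791 and 2.75 FPKM in all 12 libraries (averaged difference -0.29 ± 0.20, adjusted p = 0.427). Its gene lies wholly within Camta1 on the same strand, and how shared fragments were assigned is not given in the sources used here. Cry1, a strong inhibitor of CLOCK and BMAL1, ranged from 8.23 to 26.4 FPKM, with both extremes among IRI libraries, WT IRI 3 and KO IRI 3. Its averaged difference was 0.25 ± 0.20 (adjusted p = 0.496).

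In the activating arm, Arntl was 12.2, 17.4 and 13.2 FPKM in the WT controls and 22.7, 20.8 and 14.9 in WT after IRI. In KO it was 25.03, 16.6 and 20.8 FPKM in controls and 25.7, 20.7 and 16.1 after IRI. The difference was 0.42 ± 0.24 in WT (adjusted p = 0.412) and -0.00 ± 0.24 in KO (adjusted p = 1.00). After rescaling the WT groups of Arntl no longer overlapped (13.3 to 18.1 against 19.8 to 23.1 FPKM), and the difference of 0.48 ± 0.17 still did not pass (adjusted p = 0.114). Clock, the partner of BMAL1, had an averaged difference of -0.20 ± 0.17 (adjusted p = 0.537).

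The REV-ERB genes, direct outputs of the loop and repressors of Arntl, showed no difference past the threshold. Nr1d1 differed by 0.06 ± 0.18 (adjusted p = 0.880) and Nr1d2 by 0.08 ± 0.25 (adjusted p = 0.877). The Nr1d2 libraries spread most in the IRI groups, from 8.41 FPKM in WT IRI 3 to 24.7 in WT IRI 1, and from 17.5 in KO IRI 1 to 36.8 in KO IRI 3.

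The PAR bZIP outputs Dbp and Tef, which act on the same D-box sites, had fitted differences of opposite sign in the averaged comparison. This held under the main and all 34 alternative settings, which reuse the same libraries, and neither difference passed. Dbp was 2.998, 3.07 and 2.75 FPKM in the WT controls and 2.26, 2.23 and 1.83 in WT after IRI, without overlap, and 3.39, 3.49 and 4.06 in the KO controls and 3.72, 2.59 and 2.27 in KO after IRI, with overlap. Its averaged difference was -0.31 ± 0.13 (adjusted p = 0.181). Tef was 8.85, 10.3 and 5.13 FPKM in the WT controls, 13.5, 11.9 and 9.09 in WT after IRI, 6.74, 7.33 and 9.01 in the KO controls and 10.5, 8.18 and 16.4 in KO after IRI. Its averaged difference was 0.50 ± 0.20 (adjusted p = 0.167). After rescaling the control and IRI groups of Tef overlapped in neither genotype, and the difference of 0.57 ± 0.19 did not pass (adjusted p = 0.0766).

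The end of Dbp overlaps Sphk2 on the opposite strand over 737 bases, and the counting's strand setting is not given, so reads of the pair may not be told apart. Sphk2 was 8.57 to 9.17 FPKM in the WT controls and 4.59 to 6.64 in WT IRI, without overlap as for Dbp. In KO it was 8.39 to 11.1 FPKM for controls against 7.49 to 8.64 after IRI, with overlap, also as for Dbp, which passed the test in neither genotype.

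Counted over the 10 members, none passed within WT (limma; background 3.78% of tested genes in either direction, 2 members at an unadjusted p below 0.05) and none within KO (background 0.866%, 1 member at an unadjusted p below 0.05). Averaged over genotype, 1 rose and 0 fell. The median difference of the members was 0.13 in WT, -0.04 in KO and 0.07 averaged, beside 0.00, -0.02 and -0.00 over all tested genes. Without overlap between control and IRI as deposited, 0 members were higher in WT (background 9.28%) and 1, Per1, in KO (8.21%). After rescaling these were 3 in WT (Per1, Arntl and Tef; background 12.8%) and 2 in KO (Per1 and Tef; 12.0%). The lower ones in WT were Per2 and Dbp on both scales (background 14.4% as deposited and 13.6% after rescaling), and in KO no member was lower without overlap (background 9.15% and 10.6%).

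**Figure D2:**
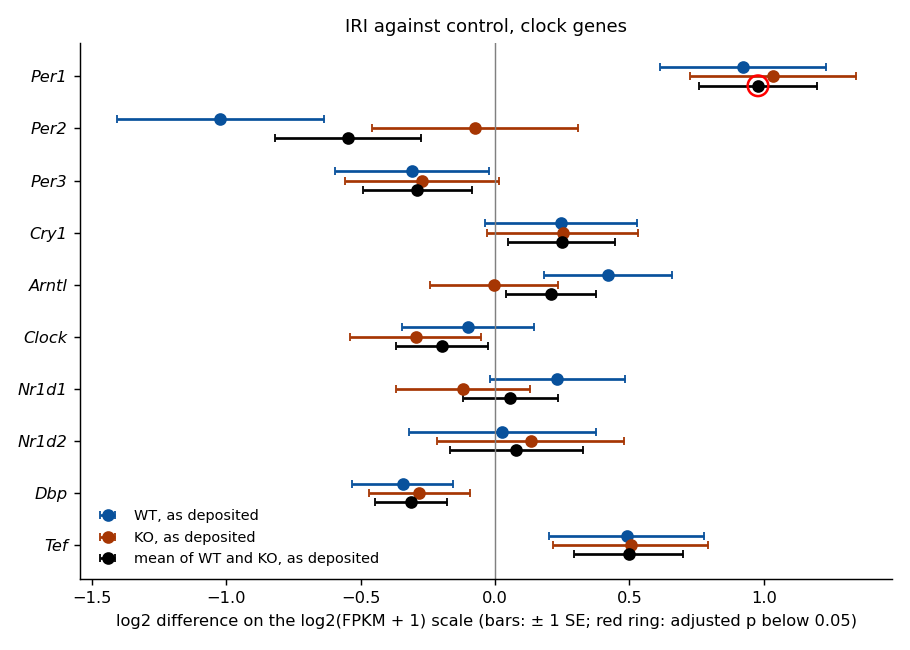
Difference between IRI and control for the 10 clock genes on the log2(FPKM + 1) scale (horizontal axis), in WT, in KO and averaged over both, with bars of 1 SE from the limma model; a red ring marks an adjusted p below 0.05. The averaged difference of Per1 at 0.98 is the ringed one, and Per2 in WT (-1.02) and in KO (-0.07) lie farthest apart from each other.

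Among 24 other clock genes, of which 22 were tested (Rorb and Bhlhe41 were below the filter), 3 rose and 0 fell after IRI averaged over genotype (background 3.01% of tested genes called higher). Nfil3, the D-box repressor that opposes DBP and TEF, was 3.89, 2.14 and 1.92 FPKM in the WT controls and 16.4, 17.1 and 10.4 in WT after IRI. It was 3.99, 4.18 and 3.76 FPKM in the KO controls and 18.8, 17.1 and 15.8 in KO after IRI. All 6 IRI libraries were above all 6 controls, a separation whose share among tested genes was not counted. The ratio of means was 5.52-fold in WT and 4.33-fold in KO. The difference was 2.11 ± 0.23 in WT (adjusted p = 0.00197), 1.87 ± 0.23 in KO (adjusted p = 0.00702) and 1.99 ± 0.17 averaged (adjusted p = 0.000156), and Nfil3 was past the threshold under all 34 alternative settings in each of these comparisons. NFIL3 is also known in T cells as a regulator of cytokine genes.

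Cry2, the second cryptochrome, averaged 3.37 ± 1.44 FPKM in the WT controls and 7.73 ± 2.12 in WT after IRI, and 4.80 ± 0.358 in the KO controls and 9.36 ± 2.76 in KO IRI (SD, n = 3 each). The groups overlapped in neither genotype (background 9.28% of tested genes higher without overlap in WT and 8.21% in KO). The averaged difference was 0.92 ± 0.21 (limma, adjusted p = 0.0207). Cry1 did not pass in this comparison, and the difference between both cryptochromes was not tested. As deposited, the Cry2 call was lost without WT IRI 1, WT IRI 2 or KO IRI 3 (highest adjusted p 0.0596).

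Usp2, a deubiquitinase reported to stabilise clock proteins, averaged 1.71 ± 0.509 FPKM in the WT controls and 4.82 ± 1.13 in WT after IRI, and 1.93 ± 0.432 in the KO controls and 5.51 ± 3.93 in KO IRI (SD, n = 3 each). KO IRI 3, at 10.02 FPKM, carried much of the last mean. The averaged difference of Usp2 was 1.05 ± 0.25 (adjusted p = 0.0276), lost without any 1 of 6 libraries as deposited (WT control 1, WT control 2, WT IRI 1, WT IRI 2, KO control 1 or KO control 3; highest adjusted p 0.0751). The median difference over the 22 tested genes was 0.03. Within WT and within KO, Nfil3 was the single gene of this list that passed as deposited. After rescaling, 6 of the 22 rose in the averaged comparison (limma, background 6.35% called higher). Among them were Nfil3, Cry2, Usp2, the casein kinase gene Csnk1d (0.44 ± 0.11, adjusted p = 0.0211) and Noct (0.38 ± 0.11, adjusted p = 0.0384). Within WT, 3 then rose (background 7.94% in either direction), among them Nfil3 and Cry2 (adjusted p = 0.0372), and within KO 1, Nfil3 (background 2.06%).

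Of 7 glucocorticoid-responsive genes, a list set beside the clock because Per1 belongs to the same class of targets, 2 rose after IRI averaged over genotype and 0 fell (background 3.01% called higher). Fkbp5, a co-chaperone of the glucocorticoid receptor, was 10.3 to 11.5 FPKM in the WT controls and 17.6 to 41.1 in WT after IRI, and 15.6 to 25.8 in the KO controls and 41.8 to 65.1 in KO IRI. Its averaged difference was 1.33 ± 0.22 (adjusted p = 0.0045). Within WT it passed (1.39 ± 0.31, adjusted p = 0.0354), and within KO it passed after rescaling (1.36 ± 0.24, adjusted p = 0.0215) and not as deposited (1.27 ± 0.31, 0.0911). As deposited, the WT call was lost without any 1 of 6 libraries (WT control 1, WT control 2, WT control 3, WT IRI 1, WT IRI 2 or KO IRI 2; highest adjusted p 0.134). Klf9, a transcription factor induced by glucocorticoids, differed by 0.97 ± 0.25 (adjusted p = 0.0347), a call kept without WT IRI 3 and lost without any other single library (highest adjusted p 0.0916). After rescaling 4 of the 7 rose (background 6.35%), and the averaged call of Klf9 then held with each library left out in turn. Tsc22d3, Ddit4 and Zbtb16 passed on neither scale in this averaged IRI comparison. The part of glucocorticoid signals in the Per1 result was not tested. Between genotypes, averaged over condition, Fkbp5 and Sgk1 were higher in KO as deposited and Zbtb16 lower (background 13.7% in either direction); Zbtb16 was the one that passed after rescaling (background 0.55%). As deposited these calls held in 1, 2 and 4 of 12 cases with a library left out, and that of Zbtb16 after rescaling in 3 of 12 (highest adjusted p 0.108, 0.109, 0.0855 and 0.0879).

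**Figure D3:**
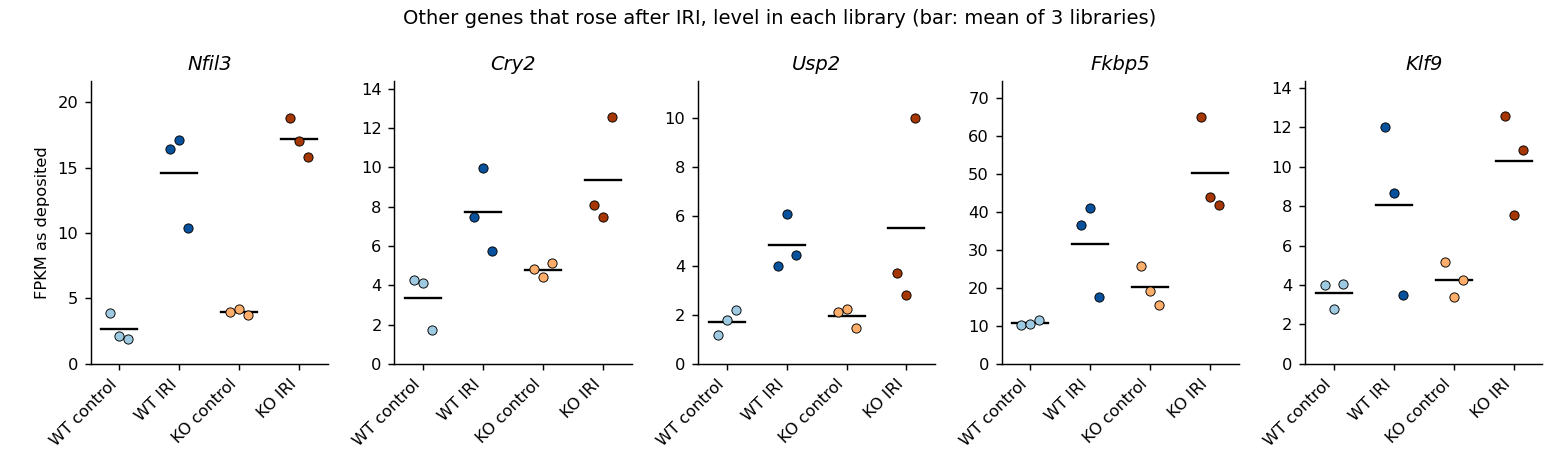
Level in FPKM as deposited (linear axis from 0) of Nfil3, Cry2, Usp2, Fkbp5 and Klf9 in the 4 groups; each point is 1 library and the bar is the mean of 3. Nfil3 shows no overlap between IRI (10.4 to 18.8) and control (1.92 to 4.18) libraries, while WT IRI 3 is the lowest IRI library for Fkbp5 (17.6) and Klf9 (3.51).

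A difference between 2 genes of the same library does not depend on how libraries are scaled against each other. Arntl minus Dbp, an activator against one of its outputs, was 2.02, 2.51 and 2.26 in log2 FPKM in the WT controls and 3.33, 3.22 and 3.03 in WT after IRI, with means of 2.26 ± 0.242 and 3.19 ± 0.153 (SD, n = 3 each) and no overlap. In KO the means were 2.50 ± 0.339 and 2.87 ± 0.114, and KO control 1 (2.88) lay within the IRI range of 2.79 to 2.999. Clock minus Per1 was -2.59 to -1.66 in the 6 controls and -3.84 to -2.82 in the 6 IRI libraries, again without overlap. Arntl minus Nr1d1 had means of 2.13 in WT control, 2.29 in WT IRI, 1.48 in the KO controls and 1.61 in KO after IRI, with overlap between control and IRI in each genotype. Its WT IRI libraries (2.04 to 2.57) lay narrowly above the KO IRI libraries (1.07 to 2.02), while the controls of the genotypes overlapped. These values are a description and carry no test. The share of other gene pairs without overlap was not counted. Clock minus Per1 holds the Per1 values given above and is no separate result.

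**Figure D4:**
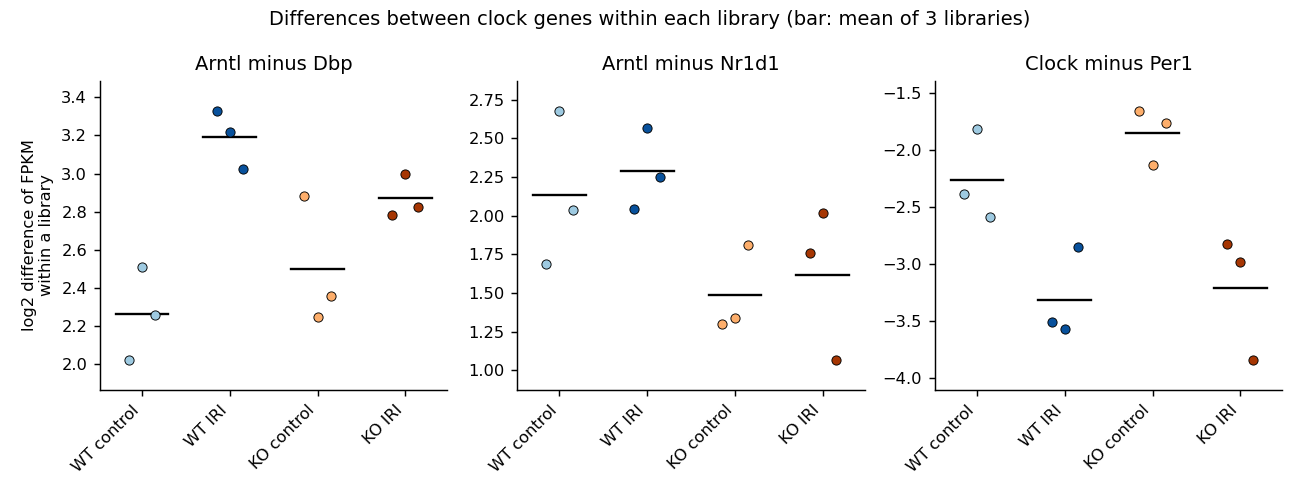
Difference in log2 FPKM between 2 clock genes of the same library (vertical axis, not from 0) for Arntl minus Dbp, Arntl minus Nr1d1 and Clock minus Per1 in the 4 groups; points are libraries and bars are means of 3. Clock minus Per1 is lower in each IRI library than in each control, and Arntl minus Dbp separates control from IRI in WT but not in KO.

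The second question was whether the clock genes differed by genotype. Averaged over control and IRI, 2 of the 10 members were higher in KO as deposited, Nr1d1 and Clock, and 0 were lower (background 11.9% of tested genes called higher and 13.7% in either direction). Neither passed after rescaling, where the background was 0.55% in either direction. The median of all tested genes differed by 0.29 between genotypes as deposited and by 0.04 after rescaling, and that of the members by 0.35 and 0.06. All 10 T cell markers were also higher in KO as deposited, and 2 of them after rescaling; the part of cell content in these differences was not tested.

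Nr1d1, which encodes REV-ERB alpha, was 3.79, 2.73 and 3.20 FPKM in the WT controls and 10.2, 6.56 and 5.94 in KO control. After IRI it was 5.51, 3.51 and 3.14 FPKM in WT and 7.60, 5.12 and 7.69 in KO. The controls of the genotypes did not overlap, and after IRI the lowest KO library (5.12) was below the highest WT library (5.51). The averaged difference was 0.81 ± 0.18 (adjusted p = 0.0296) as deposited and 0.55 ± 0.15 (adjusted p = 0.0813) after rescaling. As deposited the call held without WT IRI 1, KO control 2 or KO IRI 2 and was lost without any 1 of the other 9 libraries (highest adjusted p 0.0703). The end of Nr1d1 overlaps Thra on the opposite strand over 1075 bases, so reads of this pair may not be told apart either. Thra was 9.41 to 12.1 FPKM in WT control and 12.4 to 22.2 in KO control, without overlap as for Nr1d1. After IRI it was 6.20 to 21.3 FPKM in WT and 11.9 to 12.9 in KO, with overlap, also as for Nr1d1. Averaged over condition, Thra differed between genotypes by 0.36 ± 0.25 (limma, adjusted p = 0.297). The part of Thra reads in the Nr1d1 result was not tested.

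Clock was 8.62, 10.7 and 5.64 FPKM in the WT controls and 17.6, 10.2 and 13.9 in KO control, with overlap. After IRI it was 8.35, 7.998 and 6.18 FPKM in WT and 11.5, 11.3 and 9.97 in KO, without overlap on either scale. The averaged difference was 0.59 ± 0.17 (adjusted p = 0.0469) as deposited and 0.30 ± 0.13 (adjusted p = 0.222) after rescaling. As deposited it was lost without any single library other than KO control 2, with a highest adjusted p of 0.109, reached without KO control 1. With KO control 1, WT IRI 3 and WT control 3 all left out, a trio that earlier work on these data had set apart, neither gene passed (Nr1d1 0.64, adjusted p = 0.155; Clock 0.33, 0.198).

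Of the remaining members, Cry1 (0.52 ± 0.20, adjusted p = 0.0926) and Nr1d2 (0.55 ± 0.25, adjusted p = 0.133) were nearest to the threshold as deposited. Cry1, Nr1d2 and Dbp, besides Nr1d1, were higher in KO control than in WT control without overlap as deposited (background 20.1%), and Nr1d1 was the one left after rescaling (background 7.91%). After IRI, Clock and Dbp were higher in KO without overlap as deposited (background 24.9%), and Clock after rescaling (11.8%). None of the 10 passed between genotypes in controls (limma; background 0.0259%, 2 at an unadjusted p below 0.05) or after IRI (background 0.057%, 1 at an unadjusted p below 0.05). The comparisons of IRI and of genotype share libraries, among them those of WT control, and the averaged ones each use all 12 libraries.

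**Figure D5:**
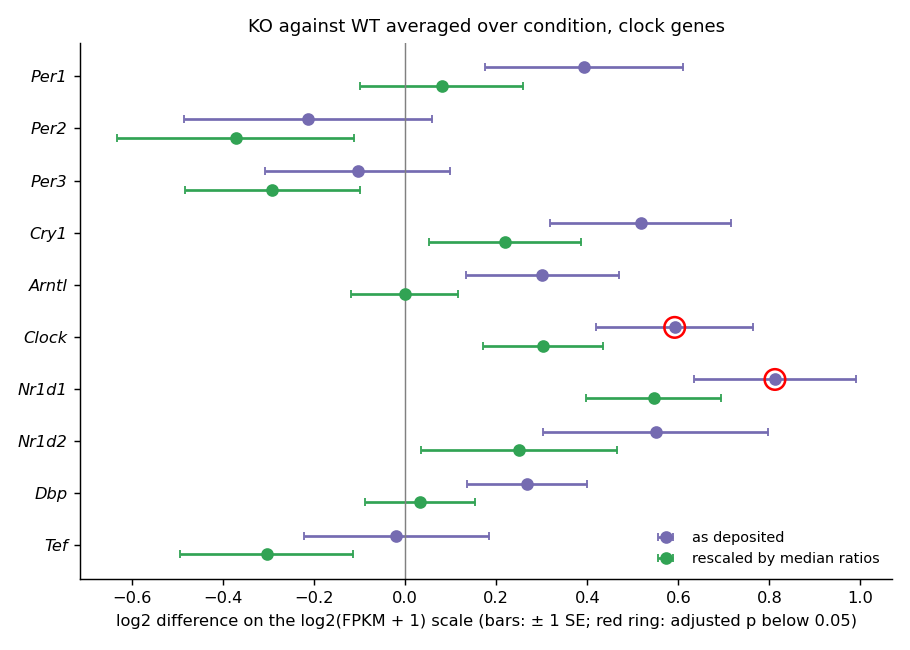
Difference between KO and WT averaged over control and IRI for the 10 clock genes on the log2(FPKM + 1) scale, as deposited and after rescaling by median ratios, with bars of 1 SE; a red ring marks an adjusted p below 0.05. Nr1d1 (0.81) and Clock (0.59) are ringed as deposited, and each gene lies farther to the left after rescaling, where none is ringed.

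In the comparison averaged over condition, as deposited, 11.9% of tested genes were called higher in KO and 13.7% in either direction. Of the 22 other clock genes tested, 3 were higher and 1 was lower in KO. Among them, Fbxw11, a ubiquitin ligase subunit that acts on PER proteins, was higher by 0.84 ± 0.19 (adjusted p = 0.0316), and Nampt, an enzyme of NAD synthesis with daily rhythm, by 0.62 ± 0.17 (adjusted p = 0.0444). Arntl2, a paralog of Arntl, differed by -0.78 ± 0.21 (adjusted p = 0.0405). With 1 of the 12 libraries left out, Fbxw11 and Arntl2 kept their calls in 2 cases each and Nampt in 1 (highest adjusted p 0.0789, 0.0911 and 0.105). None of the 22 passed after rescaling (limma, background 0.55% in either direction), with 5 at an unadjusted p below 0.05.

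The third question, whether injury acted differently in the genotypes, was tested by the interaction. None of the 10 members passed (limma; background 0.00518%, 0 at an unadjusted p below 0.05), with adjusted p of 0.999 for each as deposited. The interaction was 0.11 ± 0.44 for Per1 and 0.95 ± 0.54 for Per2, whose unadjusted p was 0.110. For Arntl it was -0.42 ± 0.34. The standard error of the Per1 interaction, 0.44, compares with an averaged Per1 response of 0.98.

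The genes most like each called member were taken from 12044 other tested protein-coding genes, by the root mean square difference of mean-centred log2(FPKM + 1) values over the 12 libraries. For Per1, whose own root mean square deviation was 0.620, these were Rbm33 (0.142), Paxbp1 (0.146) and Arap2 (0.186). For Clock (own 0.399) they were Zfp748 (0.110), Sec24b (0.111) and Pkd1 (0.119), and for Nr1d1 (own 0.485) Frmd4b (0.165), Mrps25 (0.190) and Rhbdf2 (0.192). The 12 points share library scaling, which moves all genes of a library together.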

How the data were processed

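Total RNA was sequenced from 12 libraries (1 ng RNA each, paired reads of 36 bases, per the labels' protocols). The authors deposited 1 table of FPKM values for 52632 genes, per the file headers. Per the submitters' processing notes, Cufflinks 2.2.1, Partek 7.0, bcl2fastq 2.17.1.14, TopHat2 2.1.0 and the build GRCm38 were used, without roles. Neither the strand setting nor a scaling across libraries is given in the sources used here. Symbols and coordinates came from GENCODE mouse release 21. The depth is unknown, so no counting error can be given.

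The 19288 genes that averaged 1 FPKM or more were tested with limma 3.58.1 in R 4.3.3 (lmFit, eBayes with trend) on log2(FPKM + 1), which understates changes of low genes, with 4 group means in 1 fit, 7 comparisons, and Benjamini-Hochberg adjustment over all tested genes (threshold 0.05). The code was tested on simulated data. The rescaling divided each library by the median ratio to the geometric mean over 16018 genes above 0 in all libraries. All members are named, with those of the 2 other lists that passed and, for likeness, the 3 nearest genes. Some genes of the other lists are not reported here. Members and lists were chosen with earlier results of these data known. Alternatives were pseudocounts of 0.1 and 5, no filter, rescaling, quantile normalization, a common sum, a replicate block, protein-coding genes only, and libraries left out; 2 combinations with the rescaling were added after seeing the data.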

Additional observations from a re-analysis of the deposited data

How the results depend on the processing

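The number of members past the threshold depended on the processing. For IRI against control in WT it was 0, and 1 after rescaling, after quantile normalization and with protein-coding genes only (0 to 1 with a library left out). In KO it was 0, and 1 with protein-coding genes only (0 to 1). These further calls were Per1. With a library left out it passed in WT without WT IRI 3 (1.28, adjusted p = 0.0270) and after rescaling without WT IRI 3, KO IRI 1 or KO IRI 3, and in KO after rescaling without WT IRI 3 or KO IRI 1 (0.0318 and 0.0325). Averaged over genotype it was 1, with 0 to 2 when a library was left out; the 2 were Per1 and Arntl (0.37, adjusted p = 0.0487), after rescaling and without KO IRI 3. For KO against WT averaged over condition it was 2, and 0 without a filter on low values, after rescaling, after quantile normalization, with a common sum, without the 3 libraries that stand apart (WT control 3, WT IRI 3 and KO control 1), and after rescaling without these 3; it was 3 with protein-coding genes only, where Cry1 passed as well (adjusted p = 0.0455), and 0 to 2 with a library left out. In controls it was 0 (0 to 1; Nr1d1 passed without KO control 2 at 1.06, adjusted p = 0.0485), and after IRI and for the interaction 0 (0 to 0). The cause of these changes was not tested. Of the 70 differences of members, none that was called changed sign. Per1 averaged over genotype ranged from 0.77 to 1.18 over all settings.

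The labels do not state whether the replicate numbers pair libraries. Over 18 same-numbered pairs the correlation of deviations from the group mean was -0.0371 to 0.202, with 1 above 0.1. Of the 12 libraries, 7 correlated best with their own number. With 3 libraries per group, these values cannot decide whether the numbers pair libraries. With the replicate number as a block, 1 member, Nr1d1 (adjusted p = 0.038), was called between genotypes, and Clock (0.0547) was not; the call of Per1 averaged over genotype did not change (adjusted p = 0.038).

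Limits are the 3 libraries per group, the unknown depth behind FPKM, low values of Per2, Per3 and Dbp, the unstated strand setting for genes that overlap others, and labels that give no time of collection for genes that vary by time of day.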
